A study of Homo sapiens with 6 samples.

Results

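WNT ligands and their receptors were followed in HCT116 cells, an established human colon cancer line, after siRNA knockdown of ADNP, a nuclear protein with zinc fingers that acts on chromatin. The 36 genes were taken by symbol from a table of read counts for 23368 gene symbols. They comprise 18 WNT ligands, 10 Frizzled receptors, the 2 co-receptors LRP5 and LRP6, the 4 receptor kinases ROR1, ROR2, RYK and PTK7, and the 2 R-spondin receptors LGR4 and LGR6. RNA was sequenced from cells given an siRNA against ADNP (siADNP, 3 libraries) or a control siRNA (siControl, 3 libraries). Both groups are the same cell line, and the labels name no other treatment, time or genotype. The design text calls the libraries biological replicates and does not say if each had its own culture or transfection, so the p-values measure the spread between these libraries, part of which may be technical.

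WNT proteins are secreted, lipid-modified ligands. Binding to a Frizzled receptor together with LRP5 or LRP6 stabilises beta-catenin, while ROR1, ROR2, RYK and PTK7 take part in signalling that controls cell polarity and movement largely without beta-catenin. LGR4 and LGR6 bind R-spondins and thereby keep Frizzled receptors at the cell surface. In the intestine this pathway maintains crypt stem cells, and HCT116 has a mutant allele of CTNNB1, the gene of beta-catenin, whose product escapes degradation downstream of these receptors.

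Reads assigned to genes numbered 7396771 to 8726017 per siADNP library and 8282290 to 10265175 per siControl library. One read was worth 0.113 to 0.136 CPM with siADNP and 0.0984 to 0.121 CPM with siControl. CPM give a gene's share of the reads assigned to genes, after TMM scaling, a correction for differences in library composition. ADNP itself stood at 46.7, 55.3 and 59.8 CPM in siADNP libraries, against 171, 155 and 167 CPM in siControl libraries. Of 9 markers of colon epithelium, EPCAM, KRT8 and KRT18 were abundant, and CDX1 and VIL1 had 0 reads. KRT19 fell (adjusted p = 0.0203, edgeR), but its call ended in 5 of 17 alternatives, with upper-quartile scaling (0.0604) and without siADNP replicate 2 (0.0726), siADNP replicate 3 (0.0858), siControl replicate 2 (0.123) or siControl replicate 3 (0.0656). The colon markers summed to 3018 to 3229 CPM with siADNP and 3127 to 3191 CPM with siControl. The 8 fibroblast and smooth muscle markers summed to 14.5 to 19.5 CPM with siADNP and 14.9 to 18.8 CPM with siControl, with DES higher, ACTA2 lower, and DCN and LUM at 0 reads. DES had 51, 43 and 25 reads with siADNP and 15, 14 and 9 with siControl (adjusted p = 5.48e-06, edgeR). Only 2 siControl libraries reached the cutoff of the filter on low values for DES. ACTA2 had 28, 38 and 26 reads with siADNP and 82, 61 and 72 with siControl (adjusted p = 0.000127, edgeR). The 6 blood cell markers summed to 9.40 to 10.3 CPM with siADNP and 6.99 to 7.85 CPM with siControl, without overlap, and HBB had 0 reads. CD68 made up most of that sum, with means of 9.44 CPM with siADNP and 7.04 CPM with siControl. No other blood cell marker had a group mean above 0.302 CPM. CD68, the one blood cell marker tested, rose (adjusted p = 0.0366, edgeR), but its call ended in 8 of 17 alternatives, among them DESeq2's Wald test (0.132) and the GC offset (0.0770). It ended too without siADNP replicate 1 (0.0704), siADNP replicate 2 (0.0622), siADNP replicate 3 (0.0832), siControl replicate 2 (0.0901) or siControl replicate 3 (0.114). The part of these markers in the results was not tested. CPM are shares of the sequenced RNA, so fewer cells that express a gene and less of its RNA per cell cannot be told apart.

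Of the 36 genes, 20 had enough reads to test, and of these 7 rose, 3 fell and 10 did not pass. The genes that rose were the ligands WNT3A, WNT7B and WNT11, both co-receptors, and the kinases ROR2 and PTK7. The ligand WNT9A and the receptors FZD3 and FZD6 fell. Calls required an adjusted p under 0.05 in edgeR's quasi-likelihood test, with adjustment over all 12489 genes tested. By that rule 28.3% of all tested genes were called, 14.6% as higher and 13.7% as lower with siADNP. The groups did not overlap for 10 tested members that were higher and 3 that were lower, where 40.8% of all tested genes had groups apart. Of all tested genes 20.1% were apart and higher and 20.7% apart and lower. The median log2 fold change was 0.24 over the 20 tested members and -0.00128 over all tested genes. WNT11 and WNT9A passed the filter on low values through 1 group alone, WNT11 through siADNP and WNT9A through siControl. With no filter, 33 members could be fitted and the same 7 were called higher and the same 3 lower, where 19.8% of all genes fitted in this way were called, 9.8% higher and 9.97% lower. DESeq2's Wald test gave 18 of the members an adjusted p and called 5 higher and 2 lower, where it called 20% of all genes it tested, 10.4% higher and 9.66% lower.

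**Figure D1:**
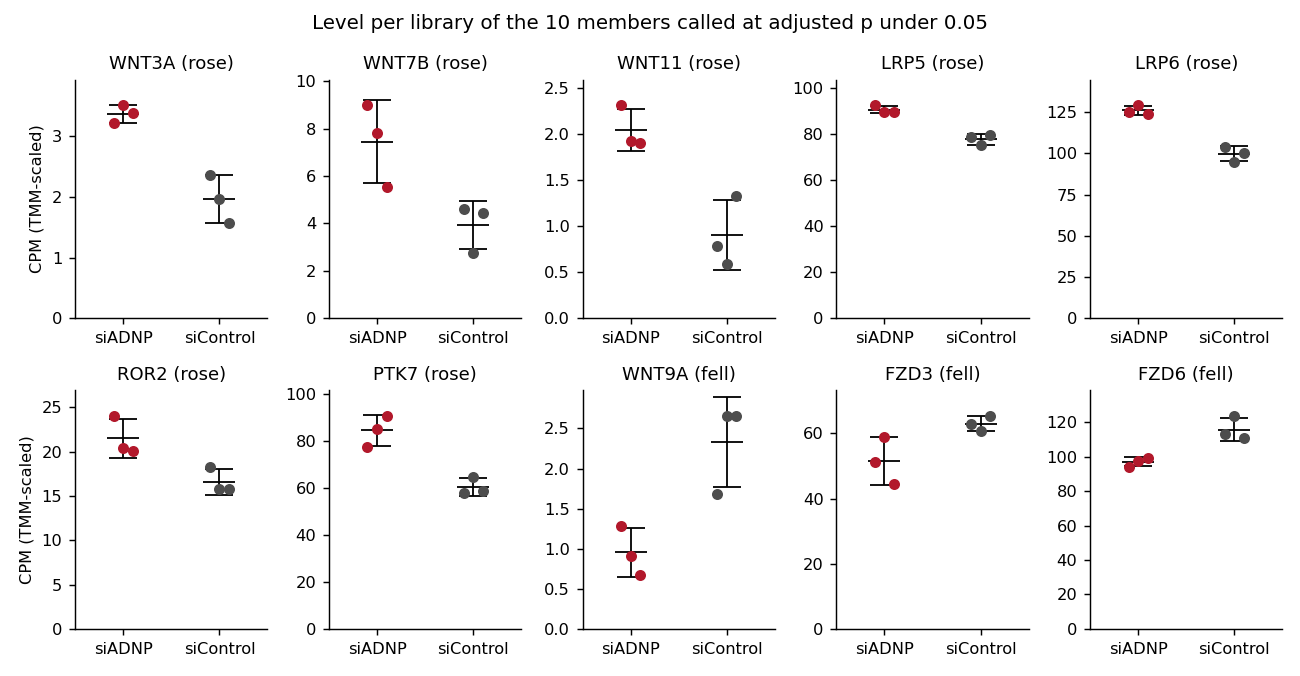
CPM of the 10 called members in each library, with siADNP left of siControl. Points are libraries, and bars give the mean and SD of 3. The groups do not overlap in any of the 10 panels, and the gap is narrowest for its level in FZD3, where the highest siADNP library (58.9 CPM) lies just under the lowest siControl library (60.8 CPM).

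Levels of different genes were compared as CPM per kilobase of each gene's longest annotated transcript. WNT16, a ligand studied mostly in bone and skin, was the most abundant member on this scale in both groups, at 36.6 ± 1.83 CPM per kb with siADNP and 35.0 ± 0.903 CPM per kb with siControl (SD, n = 3 each). FZD6 came next, at 25.6 ± 0.692 CPM per kb with siADNP and 30.6 ± 1.82 CPM per kb with siControl. LRP5 followed, with 17.6 ± 0.314 CPM per kb in siADNP libraries and 15.1 ± 0.461 CPM per kb in siControl libraries. These 3 genes held the same rank in both groups. PTK7 ranked 4 and RYK 5 with siADNP, while RYK ranked 4 and PTK7 5 with siControl. With siControl the levels of RYK and PTK7 differed by little more than their spread, at 12.3 ± 0.188 and 11.5 ± 0.728 CPM per kb. LRP6 ranked 6 in both groups, at 12.6 ± 0.265 CPM per kb with siADNP and 9.95 ± 0.452 CPM per kb with siControl. The member of rank 7 was LGR4 with siADNP, at 5.002 CPM per kb, and FZD3 with siControl, at 4.59 CPM per kb. Thus 1 ligand, 1 Frizzled receptor, both co-receptors and 2 kinases stood apart from the other members in level on this scale. It assumes the longest transcript, and the isoforms present in these cells were not measured. FZD3 was divided by 13740 bases. In plain CPM FZD3 stood at 63.0 and PTK7 at 60.6 with siControl, and at 51.5 and 84.6 with siADNP.

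**Figure D2:**
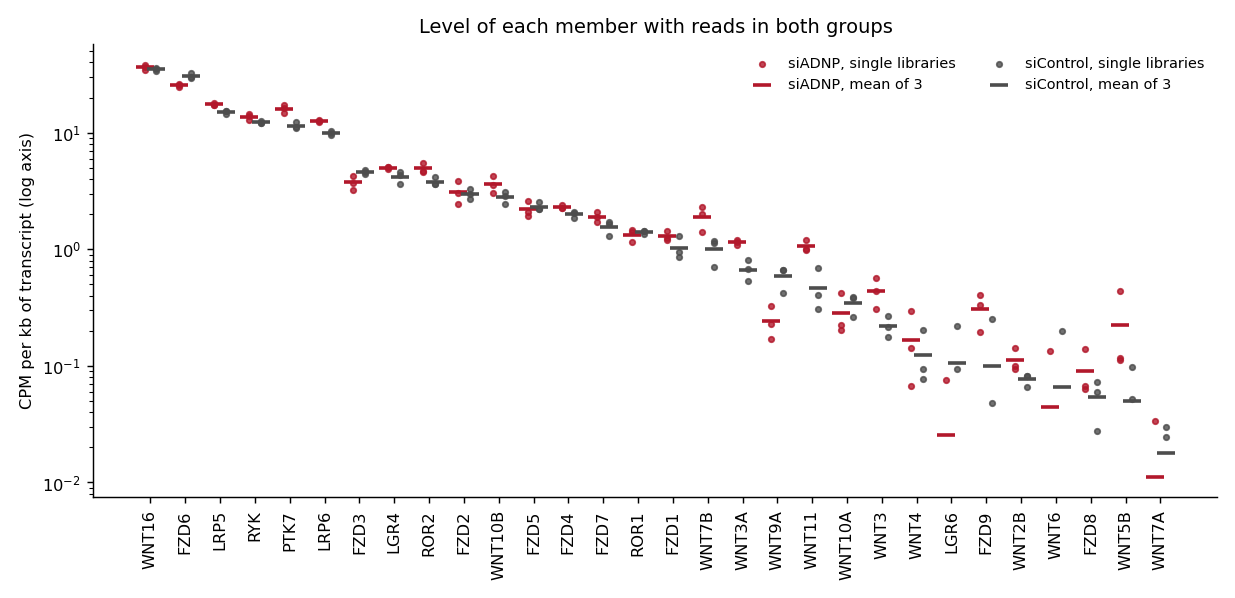
CPM per kb of transcript, on a log axis, for the members with at least 1 read in both groups, ordered by the siControl mean. Dots are single libraries and dashes the mean of 3, with siADNP left of siControl, and libraries at 0 have no dot. The levels run from WNT16 (36.6 CPM per kb with siADNP, 35.0 with siControl) down to WNT7A with 1 read in all with siADNP and 2 with siControl.

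Among the 6 tested ligands, the groups overlapped in the dominant WNT16 while 4 weaker ligands were called. Of all tested genes 28.3% were called. WNT16 had 109, 115 and 121 CPM in siADNP libraries and 113, 107 and 111 CPM in siControl libraries. Its log2 fold change was 0.06, with a 95% interval from -0.05 to 0.18 (adjusted p = 0.428, edgeR). WNT16 supplied 79.0%, 80.4% and 83.6% of all ligand reads in siADNP libraries, against 85.1%, 86.7% and 84.7% in siControl libraries. Every siADNP library had a smaller share of WNT16 than every siControl library. All other ligands together summed to 29.02, 28.1 and 23.6 CPM in siADNP libraries and to 19.7, 16.4 and 20.0 CPM in siControl libraries, again without overlap. These shares and sums were not corrected for transcript GC content, which is 41.4% for WNT16 and 59.4% to 66.6% for the other tested ligands.

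WNT7B, a ligand expressed by many epithelia, had 8.99, 7.81 and 5.56 CPM in siADNP libraries and 4.596, 2.75 and 4.46 CPM in siControl libraries. The lowest siADNP library was above the highest siControl library. WNT7B rose 1.93-fold, a log2 ratio (siADNP over siControl) of 0.95 ± 0.21, where ± is the SE (edgeR, adjusted p = 0.000687), and the call held in all 17 alternative analyses. WNT3A, a classical activator of beta-catenin signalling, had 3.21, 3.51 and 3.39 CPM with siADNP and 2.35, 1.97 and 1.57 CPM with siControl. All siADNP libraries were higher, by a log2 ratio of 0.77 ± 0.27 (edgeR, adjusted p = 0.0273). The WNT3A call was among the least stable, and ended in 7 of 17 alternatives, with an adjusted p of 0.110 in DESeq2's Wald test, 0.0769 with an offset for transcript GC content and 0.0927 when that offset was joined with the replicate number as a block. It ended too without siADNP replicate 2 (adjusted p = 0.0802), siADNP replicate 3 (0.0566), siControl replicate 2 (0.0733) or siControl replicate 3 (0.115), and the range over the alternatives was 0.0230 to 0.115.

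WNT11, a ligand that directs cell movements in vertebrate embryos, had the largest increase among tested members on the log2 scale. That rank depends on the filter on low values, which WNT11 passed through siADNP alone. Members left out by it, such as WNT5B (2.15, adjusted p = 0.0997, edgeR with no filter), had larger estimates from fewer reads. The WNT11 counts were 18, 17 and 14 reads in siADNP libraries and 7, 6 and 11 reads in siControl libraries. The means were 2.04 ± 0.231 CPM with siADNP and 0.900 ± 0.381 CPM with siControl (SD, n = 3 each). The groups did not overlap, and the log2 ratio was 1.20 ± 0.37 (edgeR, adjusted p = 0.0125). The call ended without siADNP replicate 1 (adjusted p = 0.0523), siControl replicate 1 (0.0509) or siControl replicate 2 (0.0914), over a range of 0.00748 to 0.0914 in 16 alternatives. WNT10B, another ligand of the beta-catenin branch, had 9.63, 8.04 and 6.91 CPM with siADNP and 6.50, 5.61 and 6.99 CPM with siControl. One siADNP library lay within the siControl range, and WNT10B did not pass (log2 fold change 0.37, 95% interval 0.03 to 0.72, adjusted p = 0.0962, edgeR).

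WNT9A, a ligand known from joint and skeletal development, was the ligand that fell. Its counts were 10, 8 and 5 reads in siADNP libraries and 15, 27 and 22 reads in siControl libraries. The means were 0.956 ± 0.306 CPM with siADNP and 2.33 ± 0.561 CPM with siControl (SD, n = 3 each). Every siADNP library lay below every siControl library. The log2 fold change was -1.27 ± 0.36, with a 95% interval from -1.99 to -0.55 and an adjusted p of 0.00649 (edgeR). All 16 alternatives that gave an adjusted p kept the call, with values between 0.00375 and 0.0406. They reuse these same few reads. WNT9A passed the filter on low values through siControl alone, the group in which it is higher. DESeq2's Wald test gave no adjusted p for WNT9A or WNT11, which have few reads.

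Of 7 tested Frizzled receptors, which bind the ligands directly, 2 fell and 5 did not pass, and the 2 that fell were those with the most reads. The number called lies near the 28.3% of all tested genes called, 14.6% higher and 13.7% lower. FZD6, a receptor known for its part in planar cell polarity, had 94.1, 97.7 and 99.2 CPM in siADNP libraries and 113, 124 and 111 CPM in siControl libraries. The groups were apart, by a log2 ratio of -0.26 ± 0.06 (edgeR, adjusted p = 0.000753), and the call held in all 17 alternatives. FZD3, which acts with FZD6 in polarity and axon guidance in mice, had 51.2, 58.9 and 44.3 CPM with siADNP and 62.9, 60.8 and 65.3 CPM with siControl. Here the siADNP libraries were the more scattered group, and the highest of them came close to the lowest siControl library. The log2 ratio was -0.28 ± 0.08 (edgeR, adjusted p = 0.00444). The FZD3 call ended without siADNP replicate 3 (adjusted p = 0.0763, log2 fold change -0.18), and under the GC offset (0.0508, or 0.0613 when the replicate block was added), over a range of 0.000243 to 0.0763.

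The other tested Frizzled receptors were weaker and did not pass. FZD4, the receptor of norrin as well as of WNT ligands, had 16.7, 17.6 and 16.8 CPM with siADNP and 13.6, 15.4 and 15.2 CPM with siControl. These groups did not overlap, but the 95% interval of the log2 fold change ran from -0.02 to 0.44 (adjusted p = 0.176, edgeR). FZD1 and FZD7, close relatives that signal mainly through beta-catenin, had log2 fold changes of 0.35 (0.02 to 0.69) and 0.28 (-0.08 to 0.63), with 95% intervals in parentheses. FZD2, the third of that subfamily, had 0.07 (-0.30 to 0.44), and FZD5, a receptor of the intestinal crypt, -0.07 (-0.32 to 0.18). FZD1 passed only without siControl replicate 3 (adjusted p = 0.0300, log2 fold change 0.53), in a range up to 0.364. In the mix of Frizzled reads, FZD3 and FZD6 together made up 72.8%, 72.1% and 73.2% in siADNP libraries and 79.5%, 78.6% and 76.1% in siControl libraries. That share was smaller in every siADNP library than in any siControl library, and was not corrected for transcript GC content. FZD6 alone made up 47.2%, 45.0% and 50.6% of Frizzled reads in siADNP libraries and 51.1%, 52.7% and 47.9% in siControl libraries, with overlap. Counted per kb of transcript, FZD6 alone supplied 62.9%, 60.9% and 65.8% in siADNP libraries and 68.7%, 69.1% and 65.0% in siControl libraries, and here too the groups overlapped.

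Both co-receptors, single-pass proteins that bind WNT ligands beside Frizzled, rose, where 14.6% of all tested genes were called higher. LRP6 had 125, 129 and 124 CPM in siADNP libraries and 104, 95.01 and 100.2 CPM in siControl libraries. The groups were far apart relative to their spread, by a log2 ratio of 0.34 ± 0.06 (edgeR, adjusted p = 1.07e-05), and the call held in all 17 alternatives. LRP5 had 92.5, 89.6 and 89.7 CPM with siADNP and 78.8, 75.0 and 79.4 CPM with siControl. It rose less, by a log2 ratio of 0.22 ± 0.06 (edgeR, adjusted p = 0.00410), and its call ended with the GC offset, where that ratio was 0.11 (adjusted p = 0.179, or 0.212 when the block was added). The LRP5 transcript has a GC content of 62.8% and the LRP6 transcript one of 40.2%. The number of LRP6 reads per LRP5 read, which does not depend on library scaling, was 1.35, 1.44 and 1.38 in siADNP libraries and 1.32, 1.27 and 1.26 in siControl libraries. This ratio was higher in each siADNP library, by a small margin, and was not tested.

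Of 4 receptor kinases, 2 rose and 2 did not pass, where 14.6% of all tested genes were called higher. PTK7, a catalytically inactive kinase that marks planar cell polarity signalling and is also known as colon carcinoma kinase, had 77.7, 85.4 and 90.8 CPM in siADNP libraries and 58.0, 65.0 and 58.8 CPM in siControl libraries. All siADNP libraries were above all siControl libraries. The log2 fold change was 0.48 ± 0.07, with an adjusted p of 8.04e-07 (edgeR), the smallest among the members, and between 9.62e-11 and 5.82e-05 in the 17 alternatives. ROR2, a receptor of WNT5A, had 24.02, 20.4 and 20.1 CPM with siADNP and 18.3, 15.7 and 15.8 CPM with siControl. ROR2 rose by a log2 ratio of 0.37 ± 0.11 (edgeR, adjusted p = 0.00926), and the call ended without siADNP replicate 1, the highest library (adjusted p = 0.0793, log2 fold change 0.29; range over alternatives 0.00625 to 0.0793). WNT5A itself, the best known ligand of ROR2, had 1 read in all siADNP libraries together and 0 in siControl libraries.

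RYK, an atypical kinase with a WNT-binding domain, had 67.3, 72.6 and 76.9 CPM with siADNP and 64.4, 64.1 and 65.9 CPM with siControl. The groups did not overlap, but RYK did not pass (log2 fold change 0.16, 95% interval 0.03 to 0.29, adjusted p = 0.0638, edgeR). It passed in 5 of 17 alternatives, among them the GC offset (adjusted p = 0.00495, log2 fold change 0.24), upper-quartile scaling (0.0314), library totals without scaling factors (0.0477) and the fit that left out siADNP replicate 1 (0.0267), and reached 0.229 at most. The RYK transcript has a GC content of 36.8%. ROR1, the paralogue of ROR2, had 6.68, 8.49 and 8.13 CPM with siADNP and 7.85, 8.36 and 8.44 CPM with siControl. The groups overlapped, and the 95% interval of the log2 fold change ran from -0.40 to 0.24.

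LGR4, the R-spondin receptor that was measurable, had 26.2, 25.5 and 26.4 CPM in siADNP libraries and 18.9, 24.1 and 22.4 CPM in siControl libraries. All siADNP libraries were higher, yet LGR4 just missed the threshold (log2 fold change 0.25, 95% interval 0.05 to 0.45, adjusted p = 0.0545, edgeR). It passed in 6 of 17 alternatives, among them the GC offset (0.0186), upper-quartile scaling (0.0365), library totals (0.0445), limma on the deposited log2 values (0.0488) and the fit without siControl replicate 2, the highest control library (0.0254), in a range up to 0.303. LGR6 had 0, 0 and 2 reads in siADNP libraries and 3, 8 and 0 reads in siControl libraries, and was not tested.

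**Figure D3:**
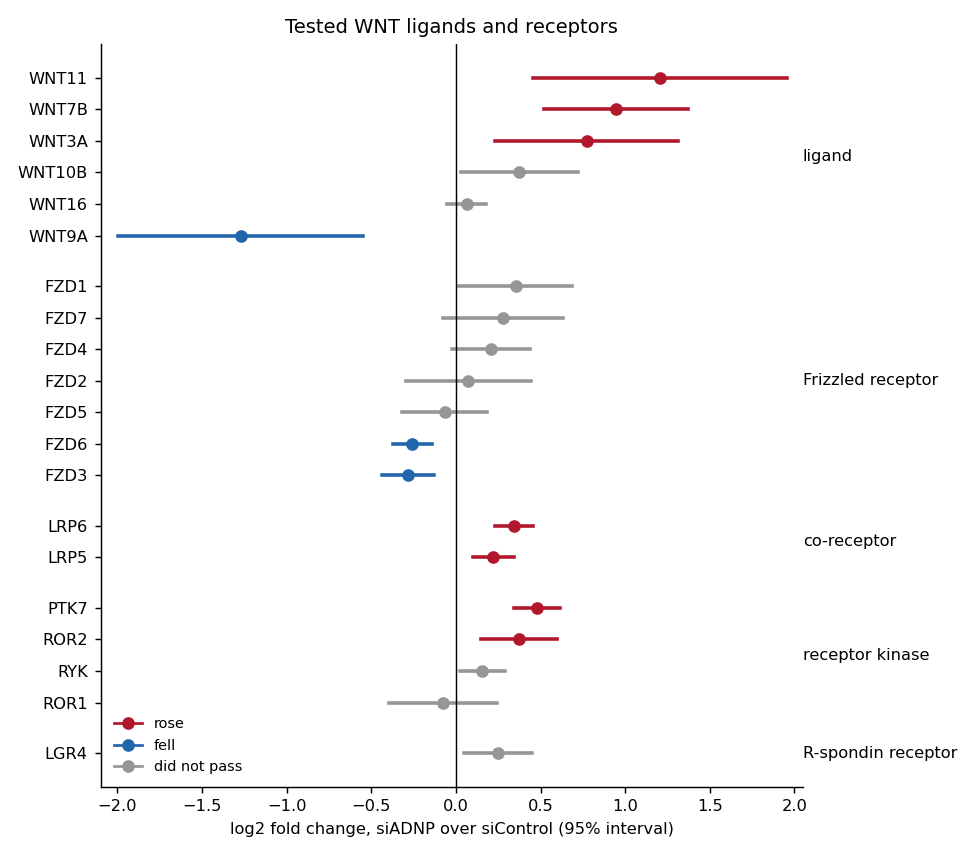
Log2 fold change of siADNP over siControl for the 20 tested members, grouped by role, with 95% intervals from edgeR's quasi-likelihood fit. Red genes rose, blue genes fell and grey genes did not pass at an adjusted p under 0.05. The intervals of the weak ligands WNT11, WNT7B, WNT3A and WNT9A are the widest among called genes, and those of PTK7, LRP6, LRP5 and FZD6 are narrow and lie off 0.

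The remaining 16 members, 12 of them ligands, had too few reads. WNT1, WNT9B and FZD10 had 0 reads in every library, which at a floor of 3 reads allows a level of up to 0.340 to 0.407 CPM per siADNP library and 0.295 to 0.362 CPM per siControl library. These limits cover counting error only. WNT3, a ligand that Paneth cells make in the mouse crypt, had 8, 13 and 14 reads in siADNP libraries and 8, 6 and 6 reads in siControl libraries. WNT2B, made by stromal cells of the gut, had 12, 9 and 8 reads with siADNP and 8, 9 and 6 reads with siControl. FZD9 had 6, 4 and 7 reads with siADNP and 1, 6 and 0 reads with siControl. WNT5B had 2, 9 and 2 reads with siADNP and 2, 0 and 1 reads with siControl. The groups did not overlap in CPM for WNT3, WNT2B and WNT5B, and they overlapped for FZD9. In reads WNT2B overlapped as well. For WNT3 and WNT5B the lowest siADNP count tied with the highest siControl count, at 8 and 2 reads. The share of all untested genes with groups apart was not counted. When these 4 genes were fitted with no filter, the adjusted p was 0.128 for WNT3, 0.526 for WNT2B, 0.177 for FZD9 and 0.0997 for WNT5B (edgeR). The rest of the untested members, with reads, had at most 17 summed reads with siADNP and 24 with siControl, both in WNT10A.

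GC content moved with direction across all tested genes, with a median transcript GC content of 54.0% among genes called higher, 43.0% among genes called lower and 48.6% among genes not called. Among the members the pattern was uneven. WNT3A (66.6%), WNT7B (63.0%), LRP5 (62.8%), WNT11 (59.5%), PTK7 (58.3%) and ROR2 (56.4%) rose and are GC-rich, but so is WNT9A (59.5%), which fell, while LRP6 (40.2%) rose at a low GC content. FZD6 (38.4%) and FZD3 (34.9%) fell and are GC-poor. With an offset for transcript GC content 7 members were called higher and 2 lower, where 25.8% of all tested genes were called, 13.4% higher and 12.5% lower. Of the members called without the offset, 5 of the 7 rises and 2 of the 3 falls were called again. RYK and LGR4 joined the rises, WNT3A and LRP5 left them, and FZD3 left the falls.

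Promoter sequence was looked up for the members in RefSeq's table for GRCh38.p14, which spans 250 bases before to 50 bases after an annotated transcription start. Entries were found for 27 of the 36 members, with 33 windows. The core of the TCF/LEF site, searched as CTTTGA or CTTTGT on both strands, occurred in 4 of the 33 windows (12.1%) and in 26.2% of all 35116 windows in the table. The GC box GGGCGG, on both strands, occurred in 23 member windows (69.7%) and in 45% of all windows. The median GC content of all windows was 58.7%, and most member windows lay above it, from 45.7% in WNT8B to 86.7% in LRP5. These motif shares were not matched for GC content, so they cannot show a lack of TCF cores or an excess of GC boxes beyond base composition. The windows shown are those of PTK7 and ROR2, the kinases that rose, and of WNT9A, the ligand that fell. Capitals mark each match to the TCF core or the GC box on either strand, and each sequence reads 5′ to 3′ on the strand of its gene. PTK7 has 2 annotated starts in the table, and the upstream one is shown (chr6:43076064-43076363, plus strand). ROR2 lies at chr9:91950179-91950478 and WNT9A at chr1:227947883-227948182, both on the minus strand.
PTK7: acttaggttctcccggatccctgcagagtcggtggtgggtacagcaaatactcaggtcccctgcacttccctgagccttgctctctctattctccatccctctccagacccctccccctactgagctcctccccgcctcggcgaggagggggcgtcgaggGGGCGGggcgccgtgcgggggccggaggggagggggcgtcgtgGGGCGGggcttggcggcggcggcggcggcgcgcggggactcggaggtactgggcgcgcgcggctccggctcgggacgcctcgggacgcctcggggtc
ROR2: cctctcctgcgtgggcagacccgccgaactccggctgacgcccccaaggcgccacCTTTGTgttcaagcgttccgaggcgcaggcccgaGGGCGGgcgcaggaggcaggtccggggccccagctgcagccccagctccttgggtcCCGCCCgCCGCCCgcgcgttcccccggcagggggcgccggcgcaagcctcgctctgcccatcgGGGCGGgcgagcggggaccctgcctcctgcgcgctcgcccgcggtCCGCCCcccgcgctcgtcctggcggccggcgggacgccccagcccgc
WNT9A: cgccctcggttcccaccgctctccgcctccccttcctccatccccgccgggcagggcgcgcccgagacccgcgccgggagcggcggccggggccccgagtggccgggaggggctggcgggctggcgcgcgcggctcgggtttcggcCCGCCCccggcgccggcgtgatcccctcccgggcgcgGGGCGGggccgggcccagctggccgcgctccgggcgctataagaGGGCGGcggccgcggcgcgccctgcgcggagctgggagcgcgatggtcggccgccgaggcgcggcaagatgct
The ROR2 window holds 1 TCF core, CTTTGT, and 5 GC boxes, and of the 5 called members with a window in the table it is the one with a TCF core. The other 5 called members, WNT7B, WNT11, LRP6, FZD3 and FZD6, were not analysed here for motifs. PTK7 has 2 GC boxes in this window and WNT9A, the only member that fell and was analysed for motifs, has 3. With a GC box in 69.7% of member windows, these counts say nothing about the direction of change. These matches describe the letters of the windows, and no binding was measured.

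The genes around the ligands and receptors were read from 3 lists. Of 35 genes for secretion and extracellular control, 14 were tested, 6 rose, 1 fell and 7 did not pass, beside 14.6% of all tested genes called higher and 13.7% lower. WLS, the carrier that takes WNT proteins to the cell surface, rose and had 63.2, 62.0 and 65.8 CPM in siADNP libraries and 47.6, 50.6 and 50.03 CPM in siControl libraries (log2 fold change 0.36 ± 0.07, adjusted p = 6.40e-05, edgeR). RNF43, a ubiquitin ligase that removes Frizzled receptors, rose to 90.5 ± 3.23 CPM with siADNP, against 74.3 ± 3.14 CPM with siControl (SD, n = 3 each). TSPAN12, a tetraspanin that assists FZD4, rose with a log2 fold change of 0.59. DKK1, a secreted inhibitor that binds LRP5 and LRP6, fell to 294 ± 5.58 CPM with siADNP, against 351 ± 7.37 CPM with siControl. PORCN, the enzyme that attaches the lipid to WNT proteins, did not pass (log2 fold change 0.19, 95% interval -0.21 to 0.59). With the GC offset, 3 genes of this list were called higher in place of 6, beside 13.4% of all tested genes, and the median log2 fold change of the tested genes without it was 0.27.

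Of 16 planar cell polarity genes, 13 were tested, 4 rose, 2 fell and 7 did not pass (median log2 ratio 0.09), beside the same 14.6% and 13.7%. Without siControl replicate 1 the number that rose was 2 in place of 4. The number that fell was 1 in place of 2 without siADNP replicate 2, siADNP replicate 3, siControl replicate 2 or siControl replicate 3. The cadherins CELSR1 and CELSR2 rose by 0.47 and 0.39 on the log2 scale, and ANKRD6, the human counterpart of the fly gene diego, by 0.40. VANGL2 was called higher too (adjusted p = 0.0495, edgeR), at 18, 26 and 11 reads with siADNP and 9, 16 and 9 with siControl. Its groups overlapped in CPM, and it passed the filter on low values through siADNP alone. INVS, a ciliary protein that targets Dishevelled, fell (-0.39), and INTU, which acts in cilium formation, fell too (-0.26). The ANKRD6 call ended in DESeq2's Wald test (adjusted p = 0.0531) and without siControl replicate 1 (0.0731), in a range from 0.00652. The INTU call ended in 7 of 17 alternatives, among them the fits without siADNP replicate 2 (0.0700), siADNP replicate 3 (0.213), siControl replicate 2 (0.0685) or siControl replicate 3 (0.0660) and the GC offset (0.107), in a range from 0.00398. Of 34 intracellular transducers, 31 were tested, 6 rose, 3 fell and 22 did not pass (median log2 ratio 0.04). These shares lie near the 14.6% and 13.7% of all tested genes. The scaffold AXIN2, itself a target of beta-catenin, the transcription factor TCF7 and the weakly expressed APC2 rose, by 0.54, 0.44 and 1.84 on the log2 scale. APC2 had 29, 32 and 12 reads with siADNP and 6, 9 and 8 reads with siControl, and passed the filter on low values through siADNP alone. The coactivator BCL9L, the tumour suppressor APC and the tankyrase TNKS2 each fell, at -0.21. With the GC offset 6 transducers were called lower in place of 3, although APC (adjusted p = 0.0512, range from 0.00137) and TNKS2 (0.0574) were then no longer called. The TNKS2 call ended too without siADNP replicate 1 (0.0818) or siADNP replicate 3 (0.0570), in a range from 0.00120. CTNNB1 was at 534 ± 23.2 CPM with siADNP and 527 ± 8.30 CPM with siControl, and its log2 fold change had a 95% interval from -0.08 to 0.11.

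**Figure D4:**
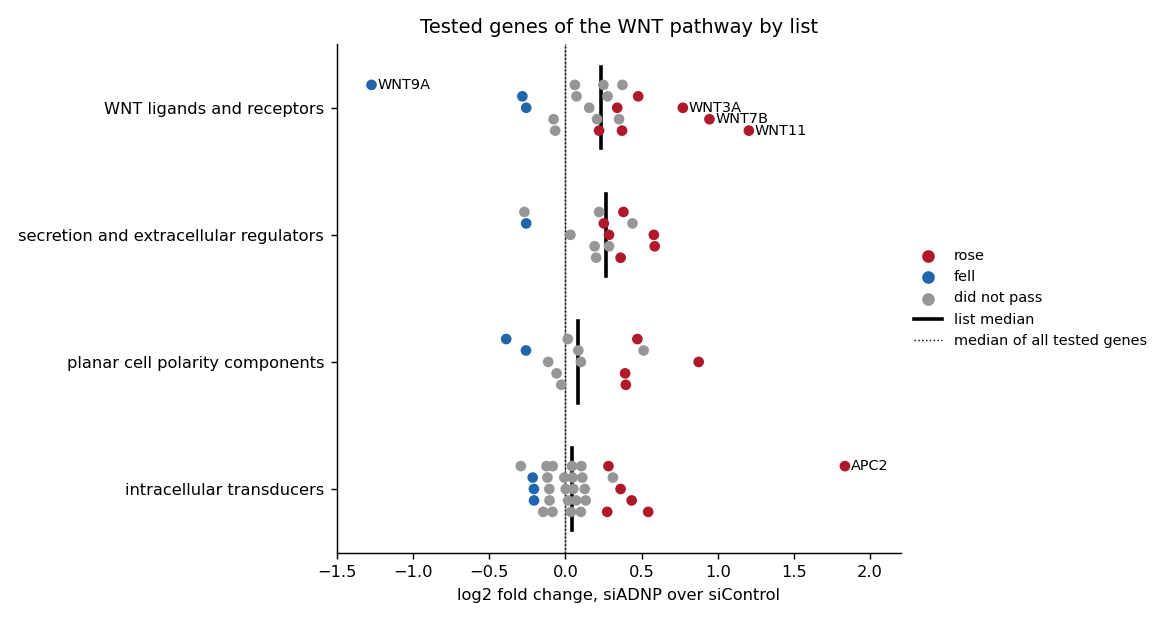
Log2 fold change of siADNP over siControl for each tested gene of the WNT ligands and receptors and of 3 further lists of the pathway. Each point is a gene, black bars are list medians and the dotted line is the median of all tested genes (-0.00128). The list medians are 0.24, 0.27, 0.09 and 0.04 from top to bottom, and WNT9A, WNT3A, WNT7B, WNT11 and APC2 lie farthest from 0 among the genes with labels.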

How the data were processed

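Total RNA from HCT116 cells was made into libraries with a Nugen kit, per the labels' protocols. The deposited counts are reads per gene symbol with no normalization, and the tools named for the authors' processing are STAR and HTSeq, with build hg19, per the submitters' processing notes. Versions, annotation and strand setting are left unnamed (not given in the sources used here), and overlapping or antisense genes may therefore share reads. The deposited log2 values are taken as variance-stabilized from the table's label and its values, with DESeq2 named per the submitters' processing notes, and were used in 1 alternative test only. Reads that matched no gene made up 54.4% to 55.7% of each siADNP library and 53.5% to 54.3% of each siControl library. Another 17.4% to 17.9% did not align uniquely and 0.455% to 0.500% were ambiguous. All were left out.

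Genes were filtered with filterByExpr (minimum count 10) and tested with edgeR 4.0.16 in R 4.3.3 (TMM, glmQLFit, glmQLFTest), two-sided, siADNP minus siControl, with Benjamini-Hochberg adjustment over all genes tested. The fit was tested on simulated data. It recovered 74% of 100 simulated log2 changes of 0.5 and 89% of 100 changes of 1, with 9 false calls among unchanged genes. Smaller changes were not simulated. SE is the size of the log2 ratio over the root of its F, and 95% intervals use the test's degrees of freedom. Alternatives used limma 3.58.1, DESeq2 1.42.0, other scalings and filters, offsets for GC content and transcript length (longest GENCODE transcript of a newer build than hg19, available for 96.7% of tested genes), a replicate block, and each library left out in turn. Figures were drawn with matplotlib 3.10.9.

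The members and lists were chosen with earlier results of these data known. Every member is accounted for. From each other pathway list the text names at most 3 called genes per direction, ranked by p, with VANGL2 in addition, and markers by list. PORCN, CTNNB1 and VANGL2 were named after their values were seen. Of the listed genes, 1 has no line in the count table.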

Additional observations from a re-analysis of the deposited data

How the results depend on the processing

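The number of members called, 7 higher and 3 lower, was 5 to 9 and 2 to 3 over the 17 alternatives, and 6 to 7 and 2 to 3 when 1 library was left out. Genes called over the whole table stayed within 1.5 times the main counts of 1824 higher and 1714 lower, with 1243 and 1160 in DESeq2's Wald test. Same-numbered libraries of the 2 groups did not deviate together (correlations of deviations from the group means of 0.0238, -0.0352 and -0.0290). The numbers thus carried no visible shared effect, which cannot tell if same-numbered libraries were made in parallel. With the replicate number as a block, 1694 genes were called higher and 1542 lower, and the same 7 and 3 members. Counts of called genes moved by more than 1.5 times in the small lists. In DESeq2's Wald test 3 regulators in place of 6 and 2 polarity genes in place of 4 were higher, and 1 polarity gene in place of 2 was lower. Directions turned only in members that did not pass. FZD2 was at -0.0533 with the GC offset (-0.0565 with the block added), against 0.07. Leaving out 1 library gave -0.12 to 0.22 for FZD2, -0.21 to 0.0226 for FZD5 and -0.15 to 0.0197 for ROR1. The cause was not tested. The depth limits the weak ligands, where 1 read is 0.0984 to 0.136 CPM.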
